A study of Mus musculus with 18 samples.

Results

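The genes examined here are those named for proteins of the mitochondrial ribosome. They were taken as every gene of the RNA-seq count table whose symbol starts with Mrpl or Mrps followed by a digit, which gave 78 of 15572 genes. By symbol, 49 were grouped as large subunit (Mrpl) and 29 as small subunit (Mrps), and the rule used no measured value. Large and small subunit stand for these symbols throughout, and the place of each protein in the ribosome was not checked. The genes lie on 17 chromosomes and had 108 transcripts in the table, with a single transcript for 61 of them. The livers came from c57bl/6j mice kept on chow for 6 to 8 weeks. WT (wildtype) littermates were compared with JMJD1C-LKO mice, in which a floxed Jmjd1c allele was crossed with Cre driven by the albumin promoter, so that the deletion was aimed at hepatocytes. RNA-seq compared refed livers of both genotypes. ATAC-seq covered fasted livers of WT mice and refed livers of both genotypes, and ChIP-seq for dimethylated lysine 9 of histone H3 (H3K9me2) covered WT livers in both states. Each group had 2 samples. Refed mice had been fasted overnight and then given a high carbohydrate diet, for 6 h per the labels. The RNA-seq samples were pooled RNA, whereas each ATAC-seq and ChIP-seq sample was 1 liver.

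Mitochondrial ribosomes translate the few mRNAs that mitochondrial DNA encodes, all of them for subunits of the respiratory chain and ATP synthase. Their rRNAs come from mitochondrial DNA, but all of their proteins are encoded in the nucleus, made in the cytosol and imported. Many of the proteins descend from bacterial ribosomal proteins and carry the number of the bacterial protein, while proteins with higher numbers were named in mitochondria, and many of them have no bacterial counterpart. Hepatocytes are rich in mitochondria. JMJD1C belongs to the family of JmjC-domain histone demethylases, and H3K9me2 is the mark it has been reported to remove. The comparisons therefore asked how much RNA of these genes was present with and without JMJD1C, and whether their promoters lay under an ATAC-seq summit, a sign of open chromatin, or under an H3K9me2 summit.

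Promoters of these genes were rich in G and C. Of the 78 genes, 69 matched a promoter entry in RefSeq (GRCm38.p6), with 75 windows of 250 bases before to 50 bases after a transcript start. Mrpl4, Mrpl13, Mrpl15, Mrpl19, Mrpl38, Mrpl54, Mrps28, Mrps34 and Mrps35 were the 9 without one. The median window held 58.7% G and C and 21 CpG dinucleotides, against 52.7% and 7 over all 32851 windows. Each motif was searched as exact letters on both strands, and no match overlapped a match of another motif. The NRF1 core GCATGCGC was present in 10.7% of the windows of these genes and 2.71% of all windows. The core CCGGAAGT, bound by ETS factors such as GABP, was present in 16.0% against 3.89%, and the YY1 core AAGATGGC in 16.0% against 2.75%. At least 1 of these 3 cores was found in 29 of the 69 genes, and in 38.7% of their windows against 8.8% of all windows. NRF1, GABP and YY1 are known activators of nuclear genes for mitochondrial proteins. The E-box CACGTG, a site of the USF family, was not set apart in this way, with 9.33% against 7.15%, nor was the CCAAT box CCAAT, with 40.0% against 37.4%. The GC box GGGCGG was present in 52.0% against 35.7%. The NRF1 core, ETS core, E-box and GC box each hold a CpG, whereas the YY1 core and CCAAT box hold none. No background matched for G and C or CpG was drawn, so these contrasts were not separated from base composition.

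The promoters below are those of genes that the results turn on, each from 170 bases before to 30 bases after the start, with NRF1, ETS and YY1 cores in capitals. Mrpl47, Mrps27 and Mrps22 had the largest decreases of RNA in the libraries labelled JMJD1C-LKO, Mrpl17 and Mrpl32 had ATAC-seq summits in 3 livers each, and the window of Mrps11 also covers the start of Mrpl46 on the other strand.
Mrpl47 (chr3:32736726-32736925, minus strand): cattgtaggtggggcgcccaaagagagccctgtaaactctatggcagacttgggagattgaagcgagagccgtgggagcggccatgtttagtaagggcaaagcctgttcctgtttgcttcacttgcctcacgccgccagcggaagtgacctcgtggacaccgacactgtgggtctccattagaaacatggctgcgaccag
Mrps27 (chr13:99344616-99344815, plus strand): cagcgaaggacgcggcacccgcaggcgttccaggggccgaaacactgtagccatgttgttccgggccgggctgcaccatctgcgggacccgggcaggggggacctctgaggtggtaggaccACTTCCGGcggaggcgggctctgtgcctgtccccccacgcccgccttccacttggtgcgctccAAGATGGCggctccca
Mrps22 (chr9:98601650-98601849, minus strand): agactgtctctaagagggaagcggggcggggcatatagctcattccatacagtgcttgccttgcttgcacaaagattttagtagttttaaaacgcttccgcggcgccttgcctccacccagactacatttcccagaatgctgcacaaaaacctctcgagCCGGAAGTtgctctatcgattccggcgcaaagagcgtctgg
Mrpl17 (chr7:105811058-105811257, minus strand): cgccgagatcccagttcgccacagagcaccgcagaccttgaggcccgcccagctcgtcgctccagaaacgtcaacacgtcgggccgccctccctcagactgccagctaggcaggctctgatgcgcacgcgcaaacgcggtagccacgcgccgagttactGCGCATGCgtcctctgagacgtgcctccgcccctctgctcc
Mrpl32 (chr13:14613008-14613207, minus strand): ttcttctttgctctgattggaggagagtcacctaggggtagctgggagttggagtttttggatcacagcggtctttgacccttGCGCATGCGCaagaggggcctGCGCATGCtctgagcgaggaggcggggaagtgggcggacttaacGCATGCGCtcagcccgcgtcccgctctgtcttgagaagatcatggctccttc
Mrps11 (chr7:78782961-78783160, plus strand): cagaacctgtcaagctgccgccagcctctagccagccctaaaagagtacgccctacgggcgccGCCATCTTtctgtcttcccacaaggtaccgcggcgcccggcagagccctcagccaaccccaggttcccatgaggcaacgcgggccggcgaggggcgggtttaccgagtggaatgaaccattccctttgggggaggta

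The Mrpl47 stretch holds none of the 3 cores in these exact letters. Mrps27 has an ETS core starting 49 bases before its start and a YY1 core inside the transcript, and Mrps22 has an ETS core starting 11 bases before its start. Mrpl17 has 1 NRF1 core, starting 11 bases before its start. The 3 capital stretches of Mrpl32 are NRF1 cores, the first of them read on both strands. A match of letters is a description of the sequence, and binding was not measured.

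Before the results, 3 features of the libraries have to be given. The H3K9me2 list of WT refed replicate 1 was short, with 1297 summits against 7690, 13456 and 9929 in the other livers, and its summits lay near the starts of 24 genes of 15468. The ATAC-seq lists were shortest in the JMJD1C-LKO livers (1450 and 825 summits) and longest in the WT fasted livers (5220 and 7632). In RNA-seq, total counts lay between 51265128 and 54400509. Jmjd1c itself had 22.0 and 22.8 CPM (counts scaled to a library size common to all libraries) in the WT libraries and 20.0 and 20.5 in those labelled JMJD1C-LKO (log2 fold change -0.14, SE 0.08, adjusted p = 0.233 by the quasi-likelihood F test of edgeR). By transcript, the one with the longer span had 860 and 709 estimated counts in WT and 819 and 861 in JMJD1C-LKO. The one with the shorter span had 280 and 479 against 171 and 268. These are counts over whole transcripts and the deleted part of the gene is not given in the sources used here, so they do not check the label. The study itself reported lower Jmjd1c mRNA by RT-qPCR and no detectable protein in JMJD1C-LKO livers.

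All 78 genes were expressed in refed WT liver and passed the filter on low counts. Levels as TPM, which are counts divided by transcript length and scaled to 1 total for all libraries, spanned from 6.52 for Mrps25 to 263 for Mrps21, with a median of 56.7 over the large subunit and 54.4 over the small subunit. The 5 highest were Mrps21 (277 and 249 TPM in the 2 WT libraries), Mrpl12 (226 and 241), Mrpl30 (212 and 211), Mrpl52 (205 and 207) and Mrpl14 (157 and 157). Mrpl12 encodes the protein of the L7/L12 stalk, which recruits translation factors, and Mrpl14 a protein of the face where the subunits meet. The 5 lowest were Mrps25 (6.38 and 6.66 TPM), Mrpl19 (9.30 and 8.48), Mrpl48 (10.7 and 10.8), Mrpl1 (12.6 and 11.0) and Mrpl3 (12.8 and 16.4). Within each set of 5, the WT values of neighbouring genes did not overlap, although gaps of only 0.235 TPM lay between Mrpl48 and Mrpl1 and 0.167 TPM between Mrpl1 and Mrpl3. A difference between genes was not tested.

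Most of these genes had less RNA in the JMJD1C-LKO libraries than in the WT libraries, by a small amount. The fold change was below 1 for 64 of the 78 genes, or 82.1% against 49.4% of the 14151 genes tested. Both JMJD1C-LKO libraries lay below both WT libraries for 53 genes (67.9%, against 33.8% of all genes tested), above both for 7 (8.97%, against 33.7%), and overlapped them for 18. The median log2 fold change was -0.14 over the 78 genes and 0.01 over all genes tested. With TMM-normalized CPM, the summed level of the 78 genes was 3350 and 3275 in the WT libraries and 3071 and 2927 in the JMJD1C-LKO libraries, and the summed TPM was 5482 and 5444 against 4888 and 4928.

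By the test of single genes, 14 of the 78 genes were lower in JMJD1C-LKO at an adjusted p under 0.05, or 17.9%, against 13.4% of all genes tested. No gene was higher by edgeR, against 14.6% of all genes tested, nor by DESeq2. At an unadjusted p under 0.05, 33 genes passed (42.3%, against 39.9% of all genes tested), of which Mrps12 and Mrps16 were the 2 higher ones. The genes of these ribosomes are expressed at middling to high levels, between 12.8 and 132 CPM in WT. Among the 5684 tested genes in that range, 21.4% were called lower and 12.3% higher, 60.2% had a fold change below 1, and the median log2 fold change was -0.07. The share of genes called lower was thus below that of genes of like expression, while the share with a fold change below 1 was above it. This range was chosen after the data had been seen.

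Both subunits had medians below 0, and a difference between them was not tested. The median log2 fold change was -0.14 over the 49 large subunit genes (quartiles -0.22 and -0.05) and -0.15 over the 29 small subunit genes (quartiles -0.25 and -0.06). Without JMJD1C-LKO replicate 2 the median of the small subunit was -0.08 and that of the large subunit -0.11. The fold change was below 1 for 40 and 24 genes. Of the large subunit 7 genes (14.3%) were called lower, and of the small subunit 7 genes (24.1%). Over all genes tested the share was 13.4%, and among genes of like expression 21.4%. Summed CPM of the large subunit was 2216 and 2152 in WT and 2031 and 1942 in JMJD1C-LKO, and that of the small subunit 1133 and 1123 against 1040 and 986. Grouped by the number in the symbol, which gives the origin only in part, 7 of the 44 genes that carry the number of a bacterial protein (L1 to L36 and S1 to S21) and 7 of the 34 genes with higher numbers were called lower, with median log2 fold changes of -0.17 and -0.12. The shares of these 44 and 34 genes called lower were 15.9% and 20.6%. Within the first group 2 of 28 large subunit genes (7.14%) and 5 of 16 small subunit genes (31.25%) were called. Within the second the counts were 5 of 21 (23.8%) and 2 of 13 (15.4%). Each share rests on 2 to 7 called genes and lies on either side of the shares above. Differences between these groups were not tested.

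**Figure D1:**
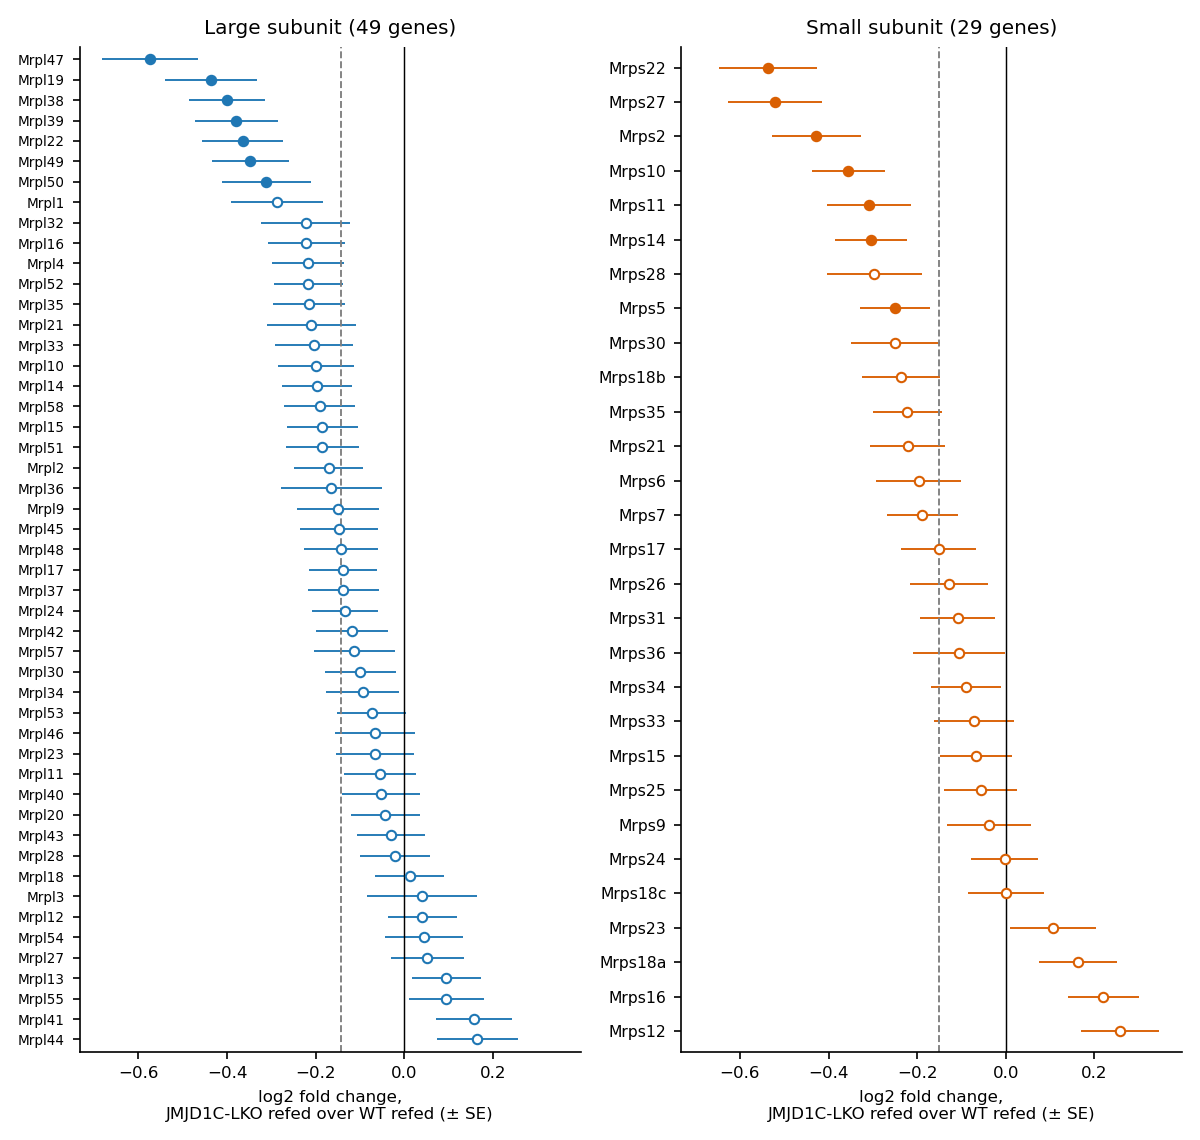
Log2 fold change of each gene in JMJD1C-LKO refed over WT refed liver with its standard error (x axis), for the large subunit (left, 49 genes) and the small subunit (right, 29 genes), 2 libraries a group. Filled points had an adjusted p under 0.05, and the dashed lines mark the medians of -0.14 and -0.15, both left of 0. The filled points, 7 in each panel, all lie left of the dashed lines.

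Of the large subunit, Mrpl47 had the largest decrease. It encodes the counterpart of bacterial L29, near the exit of the peptide tunnel. Its CPM was 21.2 and 18.6 in WT and 14.2 and 12.6 in JMJD1C-LKO (log2 fold change -0.57, SE 0.11, adjusted p = 0.00462 by edgeR, as for all adjusted p-values of this comparison). Mrpl38, a large subunit protein with no number of a bacterial protein, had 95.1 and 89.3 against 73.8 and 65.9 (log2 fold change -0.40, SE 0.09, adjusted p = 0.00832). In both genes the 2 groups were clear of each other.

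Mrpl19, a conserved large subunit protein, had 27.3 and 24.3 CPM in WT and 20.5 and 17.6 in JMJD1C-LKO (log2 fold change -0.44, adjusted p = 0.0130). Mrpl22, which lines the peptide tunnel, had 34.5 and 31.6 against 27.1 and 24.3 (log2 fold change -0.36, adjusted p = 0.0164). The other 3 of the large subunit, Mrpl39, Mrpl49 and Mrpl50, are proteins with no number of a bacterial protein. Mrpl49 had 42.0 and 42.8 against 35.3 and 31.5 CPM (adjusted p = 0.0155). Mrpl39 had 44.6 and 41.4 against 35.5 and 30.7 CPM (adjusted p = 0.0156). Mrpl50 had 52.7 and 60.5 against 49.0 and 42.3 CPM (adjusted p = 0.0446), the narrowest gap between groups among these 7 genes in relation to their spread.

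Of the small subunit, Mrps27 and Mrps22 had the largest decreases. Mrps27, a pentatricopeptide repeat protein, had 30.5 and 29.4 CPM in WT and 23.0 and 18.8 in JMJD1C-LKO (log2 fold change -0.52, SE 0.11, adjusted p = 0.00653). Mrps22, which has no number of a bacterial protein, had 25.4 and 24.7 against 19.2 and 15.4 (log2 fold change -0.54, SE 0.11, adjusted p = 0.00696). In both genes the JMJD1C-LKO libraries lay further apart than the WT libraries, with replicate 2 the lower.

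The other 5 small subunit genes called lower are counterparts of bacterial proteins. Mrps2 had 53.9 and 56.7 CPM in WT and 45.1 and 37.3 in JMJD1C-LKO (log2 fold change -0.43, adjusted p = 0.0121). Mrps10 had 40.3 and 39.5 against 32.4 and 29.9 (log2 fold change -0.36, adjusted p = 0.0116). Mrps2 and Mrps10 had the larger changes of these 5 genes. Mrps14 had 39.2 and 38.5 against 32.7 and 30.2 CPM (log2 fold change -0.30, adjusted p = 0.0218). Mrps11 had 19.8 and 18.1 against 15.3 and 15.3 CPM (log2 fold change -0.31, adjusted p = 0.0369). Mrps5 had 72.1 and 67.2 against 59.1 and 58.1 CPM (log2 fold change -0.25, adjusted p = 0.0395), the smallest change on the log2 scale that was called.

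**Figure D2:**
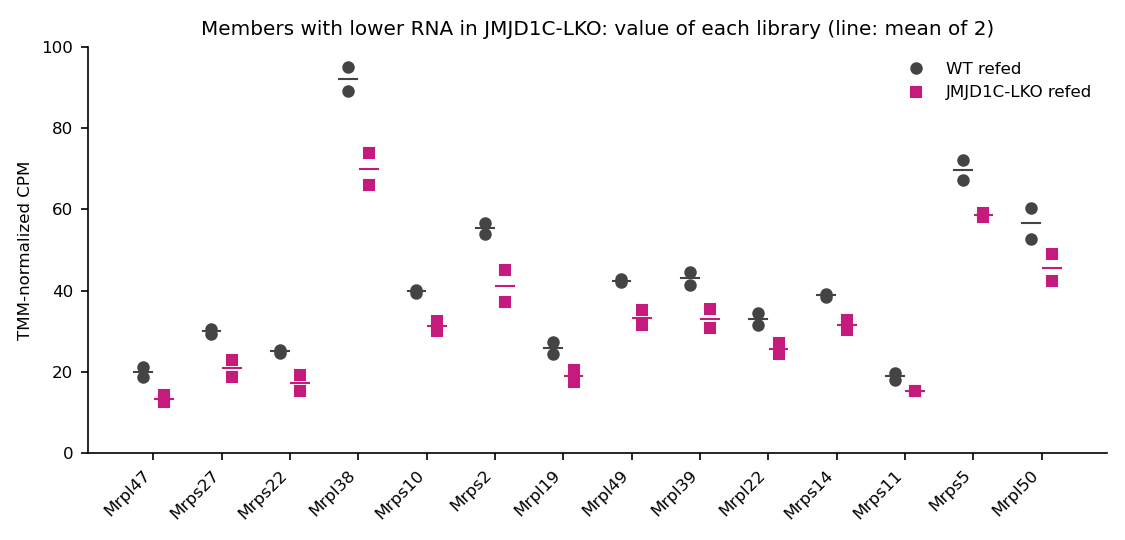
TMM-normalized CPM (y axis, from 0) of the 14 genes called lower, in each of the 2 WT refed libraries (circles) and the 2 JMJD1C-LKO refed libraries (squares), with a line at the mean of each pair. In all 14 genes both squares lie below both circles, and levels span from 12.6 CPM (Mrpl47) to 95.1 CPM (Mrpl38).

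The genes that leaned the other way did not pass the test. Mrps12, which encodes the counterpart of the decoding site protein S12, had 30.3 and 34.1 CPM in WT and 39.6 and 37.4 in JMJD1C-LKO (log2 fold change 0.26, adjusted p = 0.0559). Mrps16 had 27.7 and 28.7 against 32.7 and 33.0 (log2 fold change 0.22, adjusted p = 0.0665). Mrps18a, Mrpl41 and Mrpl44 followed, with log2 fold changes of 0.16, 0.16 and 0.17 and adjusted p-values from 0.194 to 0.211. The most abundant protein gene by CPM, Mrpl12, had 129 and 135 against 140 and 133 CPM (log2 fold change 0.04, adjusted p = 0.732).

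Calls depended on the libraries, among these genes as over all genes tested. Without WT replicate 1 the median log2 fold change was -0.11 over the large and -0.14 over the small subunit. It was -0.18 over each without WT replicate 2. Without JMJD1C-LKO replicate 1 the medians were -0.19 and -0.21, and without JMJD1C-LKO replicate 2 -0.11 and -0.08. Cell type markers moved with the comparison too. The 6 Kupffer cell and macrophage markers summed to 198 and 204 CPM in WT and 384 and 548 in JMJD1C-LKO and all 6 were called higher, 4 of 6 endothelial markers were called higher (88.1 and 89.5 against 117 and 153 CPM in sum). Stellate markers summed to 184 and 192 against 206 and 240 CPM and lymphocyte markers to 3.97 and 3.89 against 7.04 and 8.84, each with 1 of 6 called higher. Erythroid markers summed to 653 and 356 against 576 and 564 CPM with 1 of 4 called higher, and cholangiocyte markers had none called. The 8 hepatocyte markers summed to between 112172 and 125756 CPM with 2 called higher and none lower. Of the defining Kupffer cell markers, Clec4f, Marco and Cd5l were among the 6 and none was at 0. In bulk liver, fewer hepatocytes and less RNA per hepatocyte cannot be told apart, and the part of these markers in the result was not tested. Each RNA-seq sample was pooled RNA, so the p-values measure the spread between pools.

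Other genes of the mitochondrial translation system were taken from lists drawn up for this comparison. Over all genes tested 13.4% were called lower and 14.6% higher. In the range of 12.8 to 132 CPM these shares were 21.4% and 12.3%. The lists of other subunits, translation factors, assembly genes and mitochondrial DNA genes had 20.0%, 21.4%, 21.7% and 22.2% called lower. These shares lie close to that of the range, and a difference was not tested. Of 5 further subunits of the ribosome with other symbols 1 was lower, Gadd45gip1, a large subunit protein, with 73.6 and 69.2 CPM in WT and 59.5 and 57.9 in JMJD1C-LKO (log2 fold change -0.28, adjusted p = 0.0237). Of 14 translation factors and mRNA-binding proteins 3 were lower and none higher, and their median log2 fold change was -0.16. These were Slirp (log2 fold change -0.33, adjusted p = 0.0197) and Lrpprc (-0.33, adjusted p = 0.0250), whose products form a complex that stabilizes mitochondrial mRNAs, and Tsfm (-0.30, adjusted p = 0.0470), the elongation factor Ts.

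Of 23 genes for assembly of the ribosome and modification of its rRNA 5 were lower (21.7%) and 1 higher (median log2 fold change -0.10). The lower ones were the GTPases Gtpbp10 (log2 fold change -0.58, adjusted p = 0.00688), Noa1 (-0.57, adjusted p = 0.00816) and Eral1 (-0.43, adjusted p = 0.00890), and the rRNA methyltransferases Nsun4 (-0.37, adjusted p = 0.0182) and Mrm3 (-0.40, adjusted p = 0.0226). Mpv17l2, an assembly factor of the inner membrane, was higher (0.29, adjusted p = 0.0456). Of 9 genes for transcription and replication of mitochondrial DNA the helicase Twnk (-0.28, adjusted p = 0.0269) and the single-strand binding protein Ssbp1 (-0.33, adjusted p = 0.0404) were lower and none was higher, with Tfam at -0.25 and an adjusted p of 0.0705.

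Regulators of mitochondrial biogenesis moved in both directions, with 3 of 9 lower and 2 higher, against 13.4% and 14.6% of all genes tested. Ppargc1a, the coactivator PGC-1α, had 8.82 and 8.91 CPM in WT and 25.5 and 33.1 in JMJD1C-LKO (log2 fold change 1.72, SE 0.13, adjusted p = 5.40e-05). Ppargc1b, its relative, rose as well (0.79, adjusted p = 0.000725). Pprc1, the third member of that family, fell from 27.8 and 28.7 to 15.3 and 14.4 CPM (log2 fold change -0.93, SE 0.09, adjusted p = 0.000165). Nrf1, whose core motif was counted above, fell from 10.7 and 11.5 to 8.10 and 7.40 CPM (log2 fold change -0.52, adjusted p = 0.0125), and Gabpb1, a subunit of GABP, from 11.5 and 11.3 to 9.37 and 7.40 (log2 fold change -0.45, adjusted p = 0.0365). Gabpa and Yy1 did not pass the test, with log2 fold changes of -0.10 and -0.21. Of the 14 genes called lower, 12 had a promoter window. Among these 12, 2 held an NRF1 core (Mrpl22 and Mrpl39), or 16.7% against 11.6% of the 69 genes with a window, 2 an ETS core (Mrps22 and Mrps27), or 16.7% against 17.4%, and 3 a YY1 core (Mrpl49, Mrps11 and Mrps27), or 25% against 17.4%.

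H3K9me2 summits lay within 1000 bp of a start for nearly all of these genes in 3 of the 4 WT livers. The number of genes with a summit was 64 in fasted replicate 1, 78 in fasted replicate 2, 0 in refed replicate 1, the liver with the short list, and 75 in refed replicate 2. Over all 15468 genes matched to the annotation the shares were 47.3%, 68.5%, 0.155% and 56.7%. Both fasted livers had a summit at 64 genes (82.1%, against 47.1% of all genes), 41 of the large subunit and 23 of the small subunit. Both refed livers had one at 0 genes, against 0.0711% of all genes, and since a single refed list decides that count, fasted and refed livers were not compared.

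Genes of like expression also had H3K9me2 summits near their starts more often than all matched genes did. In the range of 12.8 to 132 CPM, 77.9% and 95.5% of 5655 genes had a summit in the fasted livers and 88.3% in refed replicate 2, against 82.1%, 100% and 96.2% of the genes of the mitochondrial ribosome. The 63 genes with a summit in 3 livers were joined by 13 with a summit in 2 and by 2, Mrpl23 and Mrps28, with a summit in fasted replicate 2 only. Of the 14 genes called lower by RNA-seq, 13 had a summit in both fasted livers, Mrps22 being the other. The share was 82.1% over the 78 genes and 77.6% over genes in their CPM range, and a difference was not tested.

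**Figure D3:**
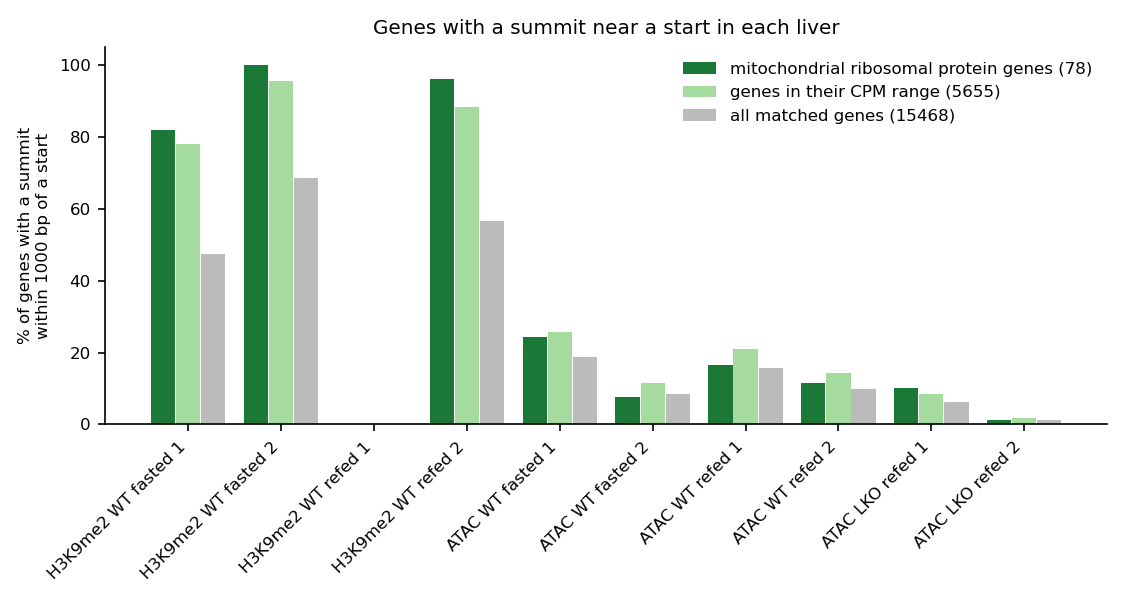
Percent of genes with a summit within 1000 bp of a transcript start (y axis) in each liver (x axis), for the 78 genes of the mitochondrial ribosome, the 5655 matched genes in their range of CPM and all 15468 matched genes. H3K9me2 bars of the 78 genes reach 82.1%, 100%, 0% and 96.2%, and ATAC-seq bars stay at or below 24.4%.

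H3K9me2 summits lay downstream of the start at a narrow distance. Of 250 summits near these genes, 188 lay 100 to 400 bp downstream and 4 within 100 bp on either side, with a median of 220 bp downstream. By annotation 133 lay in introns of the gene, 71 in exons and 46 outside the gene. The medians per liver were 197 bp, 217 bp and 238 bp in fasted replicate 1, fasted replicate 2 and refed replicate 2, close to those over all genes, 250 bp, 214 bp and 252 bp. Of the 48 summits upstream of the start, 36 belonged to genes with the start of another gene on the opposite strand within 1000 bp.

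Scores are the −log10 of the MACS2 q-value and were read by rank within a liver. By the lowest rank over 3 livers of the best summit within 1000 bp, chosen after the values were seen, Mrps18b, Mrpl12 and Mrpl47 came first. The best summit near Mrps18b ranked within the top 4.9% in each of the 3 livers. In fasted replicate 1 and refed replicate 2 it lay 906 and 799 bp upstream, beyond the start of Ppp1r10 on the other strand, while the summits downstream of the Mrps18b start ranked at 15.7% and 33.5% there and at 3.6% in fasted replicate 2. The best summit near Mrpl12 ranked within the top 9.6% and that near Mrpl47 within the top 11.4%. For Mrpl12 it lay in an intron of the gene on chromosome 11, 235, 282 and 314 bp downstream of the start. For Mrpl47 it lay 563, 657 and 600 bp upstream, beyond the start of Ndufb5 on the other strand, while a second summit lay 248, 166 and 230 bp downstream, in an intron, and ranked at 53.9%, 41.3% and 74.2%. The partner starts lie 756 bp (Ppp1r10) and 308 bp (Ndufb5) away, so these upstream summits lay past them and not between the paired starts. The ranks they gave describe the region near the start and not the ribosomal gene itself. Mrpl48, with a start 36 bp from that of Rab6a, had the best ranked summits of the fasted livers, within the top 1.9% and 1.8%.

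**Figure D4:**
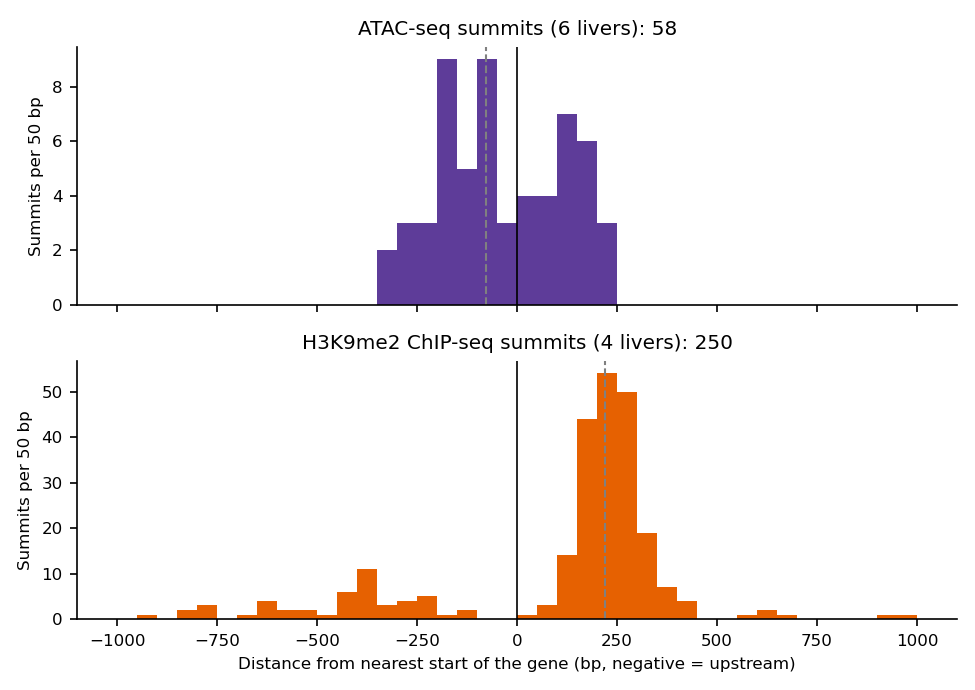
Summits near the 78 genes by distance from the nearest start of the gene (x axis, negative is upstream), in bins of 50 bp (y axis, number of summits), for ATAC-seq (top, 58 summits of 6 livers) and H3K9me2 (bottom, 250 summits of 4 livers, of which refed replicate 1 gave none). Dashed lines mark the medians, 77 bp upstream for ATAC-seq and 220 bp downstream for H3K9me2.

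ATAC-seq summits were found at a minority of these genes. At least 1 of the 6 livers had a summit near 27 genes, and 51 genes had none. By liver, 19 and 6 genes had a summit in the WT fasted group, 13 and 9 in the WT refed group and 8 and 1 in the JMJD1C-LKO refed group, or 24.4%, 7.69%, 16.7%, 11.5%, 10.3% and 1.28% of the 78 genes. Over all matched genes the shares were 18.9%, 8.61%, 15.6%, 9.79%, 6.28% and 1.31%, and in the range of CPM of these genes 25.7%, 11.7%, 21.1%, 14.2%, 8.51% and 1.80%. The number of genes followed the length of the lists, except in WT fasted replicate 2, which had the longest list and 6 genes. Large and small subunit genes had 11 and 8 in WT fasted replicate 1, 5 and 8 in WT refed replicate 1 and 5 and 4 in WT refed replicate 2.

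Both livers of a group agreed for few genes. Both WT fasted livers had a summit at 6 genes (7.69%, against 6.81% of all genes), which were Mrpl18, Mrpl46, Mrpl48, Mrps11, Mrps28 and Mrps33. Both WT refed livers had one at 5 genes (6.41%, against 7.49%), which were Mrpl17, Mrpl34, Mrpl48, Mrps14 and Mrps28. Both JMJD1C-LKO livers had one at 0 genes, against 0.556% of all genes. Mrpl48 and Mrps28 were shared by the fasted and refed groups. Of the 5 genes of the refed group, 4 also had a summit in JMJD1C-LKO replicate 1, Mrpl48 being the exception, and none had one in JMJD1C-LKO replicate 2, which had 825 summits in all. With 2 livers a group and lists of such unequal length, a difference between groups was not tested.

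**Figure D5:**
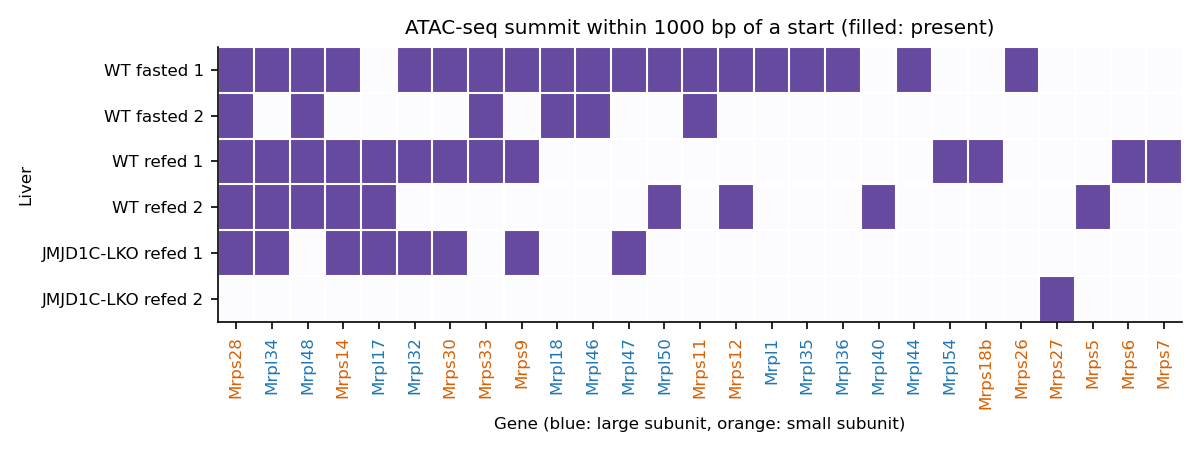
Presence of an ATAC-seq summit within 1000 bp of a start (filled) for the 27 genes with at least 1 (x axis) in each of 6 livers (y axis), ordered by the number of livers. Mrps28 is filled in 5 livers, Mrpl34, Mrpl48 and Mrps14 in 4, and JMJD1C-LKO refed 2 has a single filled cell, Mrps27.

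The ATAC-seq summits lay closer to the start than those of H3K9me2. Of 58 summits 47 lay within 200 bp and 34 upstream, with a median of 77 bp upstream. The strongest was that of Mrpl48 in WT refed replicate 2 (chromosome 7, position 100607557 in mm10), with a score of 20.27 and rank 187 of 3119. It lay in an intron, 65 bp downstream of the nearest of the 4 annotated starts of Mrpl48. The best ranked H3K9me2 summits of this gene in the fasted livers were placed from another of these starts. In the fasted livers the ATAC-seq summits of Mrpl48 lay 242 and 199 bp downstream of the nearest start, and in WT refed replicate 1 the summit lay in the same intron. Mrps28, of the small subunit, had summits in an exon on chromosome 3 in 5 livers, 203 and 177 bp downstream in the fasted livers, 176 and 77 bp in the refed livers and 114 bp in JMJD1C-LKO replicate 1.

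Mrpl17, whose promoter is shown above with its NRF1 core, had summits 266 and 82 bp upstream of the start in the WT refed livers and 104 bp upstream in JMJD1C-LKO replicate 1. Mrpl34, a short conserved protein of the large subunit, had summits 2 bp downstream and 148 bp upstream in the WT refed livers and 158 bp upstream in JMJD1C-LKO replicate 1. Mrps14, called lower by RNA-seq, had summits 91 and 152 bp upstream in the WT refed livers and 147 bp upstream in JMJD1C-LKO replicate 1. Mrps27, also called lower, had its single summit in JMJD1C-LKO replicate 2, 26 bp upstream, between the ETS core and the start, with a score of 3.40 and rank 681 of 825. Of the 14 genes called lower, 1 had a summit in both WT refed livers and 3 in at least 1. The 5 genes with a summit in both refed livers had a median log2 fold change of -0.14, and the 61 genes with none in either refed liver also had one of -0.14.

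Starts of other genes lay close to many of these genes. For 31 of them (39.7%, against 19.3% of all matched genes) a gene on the opposite strand started within 1000 bp. An ATAC-seq summit lay near 14 of these 31, against 27 of all 78 genes, and a difference was not tested. The window around such a start also covers the partner's start, and a summit between paired starts cannot be assigned to either gene. Mrpl46 and Mrps11, of the large and the small subunit, form such a pair, with starts 42 bp apart on chromosome 7. The same summit served both genes in the fasted livers, at position 78783179 in replicate 1 and 78783175 in replicate 2 (mm10), 48 and 44 bp inside Mrps11. Mrps11 was called lower by RNA-seq, whereas Mrpl46 had a log2 fold change of -0.07 and an adjusted p of 0.618, and a difference between the 2 genes was not tested.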

How the data were processed

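RNA was measured in refed mouse liver, and ATAC-seq and H3K9me2 summits were called per liver. For each RefSeq transcript (mm10) the authors deposited an estimated count, not scaled, for which the processing notes name HISAT2 and Partek without giving their roles. The authors called summits with MACS2 (version 2.1.1 in the processing notes) and deposited each with the −log10 of its q-value. These lists hold no read counts, so their depth is unknown. A table of the authors' own comparison (p-value, FDR and fold change per transcript) was not used. The titles mark livers F and R, read as fasted and refed from the reporting summary of the study. The labels give 6 h of refeeding, and the methods give a longer range.

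Counts were summed per gene, rounded and tested with edgeR 4.0.16 (TMM, filterByExpr, quasi-likelihood F test, Benjamini-Hochberg over 14151 genes) in R 4.3.3. Fractions made up 65.4% to 65.9% of the values of a library. DESeq2 1.42.0 was an alternative. CPM is TMM-normalized, and TPM used transcript lengths. TMM factors lay between 0.961 and 1.018. Replicate libraries differed by more than counting error (chi-square per degree of freedom 13.3 in WT and 33.7 in JMJD1C-LKO). Summits were matched to every transcript start of a gene in the RefSeq annotation of GRCm38.p6 within 1000 bp on either side, for the 15468 of 15572 genes that matched, and placed by exon and intron. Motifs were searched in RefSeq promoter windows. The scripts were tested on simulated data. In simulated counts, 33.3% of the genes changed by 0.5 on the log2 scale were called. A gene not called may therefore still have changed. The genes and the lists were chosen with earlier results of these data known. Named were the genes past the threshold, the 5 with the smallest p in the other direction, those with ATAC-seq summits in both livers of a group, leading H3K9me2 genes, the 5 highest and 5 lowest by TPM, and up to 5 called genes a list. In the group of other ribosome subunits, 2 listed genes carry Mrp symbols and were counted with the 78, and 1 listed translation factor could not be matched.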

Additional observations from a re-analysis of the deposited data

How the results depend on the processing

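The number of genes called lower (14) stayed at 14 with size factors of DESeq2 or without a filter on low counts. It was 12 with DESeq2 (all 12 among the 14) and rose to 26 with library totals only, which moved the median of all genes from 0.01 to -0.03. Over all genes tested the shares called lower in these settings were 13.2%, 12.15%, 11.4% and 16.0%, in the same order. Leaving out each library in turn gave 0 to 28 genes lower and 0 to 1 higher, the latter being Mrps12 without JMJD1C-LKO replicate 2. The share of lower calls among all genes moved as well, from 2.81% to 17.9%. Both subunit medians stayed below 0 in each of these settings, between -0.19 and -0.11 for the large and between -0.21 and -0.08 for the small subunit. Of 171 alternative values of 19 single genes (the 14 called and the 5 leading higher ones) 34 no longer passed, 1 newly passed, 0 changed sign and the rest kept their direction and side of the threshold. Replicate numbers did not pair the libraries (correlation of same-numbered deviations -0.005). With a replicate block 16 genes were lower, the 14 and Mrpl1 and Mrps28, and 14.1% of all genes tested.

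Windows of 500 and 2000 bp left each summit count within 1.5 times its value. A score of at least 5 left 3 genes with an ATAC-seq summit in both WT fasted and 3 in both WT refed livers. With each list limited to the 825 (ATAC-seq) or 1297 (H3K9me2) strongest summits, both fasted livers shared 7 genes by H3K9me2 and 1 by ATAC-seq, and both refed livers 1 by ATAC-seq. Single livers gave 6 to 19 genes (WT fasted), 9 to 13 (WT refed) and 1 to 8 (JMJD1C-LKO) by ATAC-seq, and 64 to 78 (fasted) and 0 to 75 (refed) by H3K9me2, where refed replicate 1 is the list with 0. The causes were not tested. Summit lists give no read depth, which limits every comparison between livers.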

Other observations

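The genes that share a start region with a gene of the mitochondrial ribosome had their own changes. There were 30 distinct pairs on opposite strands, with starts 8 to 935 bp apart, of which 1 joins Mrpl46 and Mrps11. Of the 29 partners outside the 78 genes, 10 were lower (34.5%, against 13.4% of all genes tested) and 1 was higher (3.45%, against 14.6%) in JMJD1C-LKO (adjusted p under 0.05, edgeR). Among genes in the CPM range of the 78 the shares were 21.4% and 12.3%. The partners were not matched by expression, and the difference was not tested. The ribosomal gene and its partner were both lower in 1 pair, Mrps27 and Ptcd2, a pentatricopeptide repeat protein of mitochondria (log2 fold changes -0.52 and -0.34). In others the partner was lower and the ribosomal gene was not called, as in Mrpl18 and the chaperonin subunit Tcp1 (log2 fold changes 0.01 and -0.39), Mrpl32 and the proteasome subunit Psma2 (-0.22 and -0.36), and Mrpl43 and Twnk (-0.03 and -0.28). Mrpl47 and Mrpl49 were lower, whereas their partners Ndufb5 and Fau, the latter the source of a cytosolic ribosomal protein, had log2 fold changes of -0.06 and -0.05 and were not called. The partner that was higher was Ppp1r10 (log2 fold change 1.36, adjusted p = 0.000144 by edgeR), beside Mrps18b (-0.24, adjusted p = 0.0699). These pairs were named after their values were seen, and differences within pairs were not tested.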
